A study of Mus musculus with 3 samples.

Results

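Gata3, Elf3, Ehf, Grhl3, Tfap2c, Casz1, Pparg and Foxa2 are 8 genes that encode DNA-binding transcription factors of epithelial cells. They were chosen as a list of gene names from the 9784 gene rows of the expression table, with earlier results of these data known. The table came from single-cell RNA sequencing of 3 mouse tissues, each labelled as normal and each represented by 1 library: the E18.5 male urogenital sinus (UGS), where prostate buds form before birth, and the prostate at P14 and at P35. The labels gave neither genotype nor strain for these samples, and the study stated that its mice were of mixed C57BL/6 and 129S1/SvImJ background. How many animals entered each library is not given in the sources used here. All 3 tissues were dissociated with collagenase and TrypLE. The cell barcodes carried 3 endings, which divided the 14573 cells into barcode set 1 (766 cells), set 2 (5350 cells) and set 3 (8457 cells, of which 97 had fewer than 200 genes and were left out). The labels do not say which ending belonged to which tissue. The number of cells in the smallest set equals the number that the study gives for the embryonic UGS, while those of the other sets match neither of its other numbers, and this was not used to assign a tissue. The sets were therefore compared only as sets, and age, tissue, library kit and depth cannot be told apart between them. With a single library per set there was no replicate check, no test across samples was possible, and every interval below is an exact 95% interval that covers counting error only.

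In stratified and glandular epithelia, identity is held by a small number of transcription factor families that bind the enhancers of junction, keratin and secretory genes. GATA3 and the winged-helix factor FOXA2 act early in endodermal and urogenital buds. ELF3 and EHF are ETS factors of differentiated epithelium, GRHL3 is a grainyhead factor of barrier-forming epithelium, TFAP2C is an AP-2 factor of surface and basal cells, CASZ1 is a zinc finger factor, and PPARG is a lipid-activated nuclear receptor that works in the differentiation of the bladder lining, the urothelium. In the prostate, basal cells line the duct wall, luminal cells secrete, and the urothelium lines the adjoining urethra.

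Set 1 stood apart from the other sets before any gene was considered. Its cells had a median of 19357 unique molecular identifiers (UMIs, the count of captured transcripts), against 1738 in set 2 and 1788 in set 3. The number of barcode sequences that occurred in both of a pair of sets was 1 for sets 1 and 2, 0 for sets 1 and 3, and 13 for sets 2 and 3. Levels are given in CPM, the UMIs of a gene summed over the cells of a class for every 1000000 UMIs that those cells held in total. The classes were built by clustering with these 8 genes and the other transcription factors discussed below left out, and were named from marker lists. Epithelium-like cells numbered 151, 1444 and 2778 in sets 1, 2 and 3, and within them basal-like cells numbered 45, 430 and 1500, luminal-like cells 54, 298 and 759, and urothelium-like cells 1, 12 and 28. The remaining epithelium-like cells lay in clusters that the marker rule did not name. Among them was cluster 4, with 7, 209 and 151 cells of sets 1, 2 and 3, led by stromal genes such as Actg2, Col1a2 and Myl9. In it 6 fibroblast and 6 smooth muscle markers were raised, and its cells were kept in the epithelium-like levels.

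The names were checked against what rows the table held. Of the listed markers, 12 of 22 for basal cells, 11 of 24 for luminal cells and 10 of 25 for urothelium had a row, and the defining Krt5, Krt14, Trp63, Pbsn and Upk2 were not analysed here. The basal list summed to 1909, 2409 and 4020 CPM in the basal-like cells of sets 1, 2 and 3 and to 678, 938 and 811 CPM in the luminal-like cells. The luminal list hardly separated the classes in set 1, with 1323 CPM in luminal-like and 1116 CPM in basal-like cells. In set 3 it had 3225 and 1022 CPM. Of this list in set 1, Tspan8 was higher in luminal-like cells (493.4 against 223.6 CPM). Cd24a (717.4 against 777.3 CPM) and Tspan1 (66.08 against 96.35 CPM) were lower, and no other luminal marker passed 14.52 CPM. Tspan8 was also at 916.4 CPM in the urothelium-like cells of set 3. In set 1 the urothelium list summed to 7770 CPM in the luminal-like and 3080 CPM in the basal-like cells, where sets 2 and 3 had 653 to 1193 CPM in these classes. The set 1 cells called luminal-like therefore also carried urothelium markers. When cells were classed one by one from marker sums, 125 of the 151 were urothelium-like, 18 luminal-like and 8 basal-like. The division of luminal-like from basal-like cells in set 1 existed only after the sets were integrated: without integration 1 basal-like and 1 luminal-like cell of set 1 remained.

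The 8 genes lie on 4 chromosomes of the mouse genome (RefSeq annotation, GRCm38.p6). Elf3 is on chromosome 1 (135253574 to 135258472). Gata3 (9857078 to 9887953), Ehf (103263431 to 103303275), Foxa2 (148042877 to 148046969) and Tfap2c (172545678 to 172558622) share chromosome 2. Grhl3 (135541887 to 135573632) and Casz1 (148804366 to 148954893) share chromosome 4, and Pparg is on chromosome 6 (115360879 to 115490404). RefSeq promoter sequences matched 6 of the 8 genes, all but Ehf and Tfap2c. The 250 bases before a RefSeq start are shown for Elf3, Grhl3 and Pparg, because their levels were several times higher in set 1 than in both other sets; Foxa2, which also differed, had 68 UMIs in all and is not shown. The most upstream start listed was used, and the windows of Pparg and Gata3 lie inside the span of the gene and that of Casz1 partly so. Each is written 5′ to 3′ on the strand of its gene. Capitals mark matches to letters bound by the families of these 8 factors.
Elf3, minus strand, chr1:135258473-135258722: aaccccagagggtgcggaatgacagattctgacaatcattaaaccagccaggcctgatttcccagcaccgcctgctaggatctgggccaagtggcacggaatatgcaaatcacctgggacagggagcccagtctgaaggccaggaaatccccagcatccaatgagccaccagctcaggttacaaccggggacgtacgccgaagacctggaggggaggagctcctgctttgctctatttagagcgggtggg
Grhl3, minus strand, chr4:135573633-135573882: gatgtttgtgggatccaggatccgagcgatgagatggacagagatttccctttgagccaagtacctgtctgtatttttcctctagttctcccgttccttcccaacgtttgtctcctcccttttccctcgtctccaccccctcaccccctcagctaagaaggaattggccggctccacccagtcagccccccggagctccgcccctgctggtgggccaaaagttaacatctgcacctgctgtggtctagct
Pparg, plus strand, chr6:115360894-115361143: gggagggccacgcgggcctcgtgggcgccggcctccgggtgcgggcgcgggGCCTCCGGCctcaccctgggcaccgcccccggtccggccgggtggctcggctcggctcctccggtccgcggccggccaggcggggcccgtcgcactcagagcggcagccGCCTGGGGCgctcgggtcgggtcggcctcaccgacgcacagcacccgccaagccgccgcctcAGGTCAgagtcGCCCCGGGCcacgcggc

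The letters searched on both strands were GATAA for GATA factors, AGGAAG for ETS factors, AACNNGTT for grainyhead factors, GCCNNNGGC for AP-2 factors, GTAAACA for forkhead factors and AGGTCA for nuclear receptors. The Pparg promoter had a GC content of 82.4%, against a median of 52% over 27025 promoters of the same length, and held 3 matches to GCCNNNGGC and 1 to AGGTCA. GCCNNNGGC was present in 13.5% of all promoters and AGGTCA in 13.8%. The Gata3 window held 3 matches to GCCNNNGGC and the Foxa2 window 1. No match to any of the 6 patterns lay in the windows of Elf3, Grhl3 or Casz1, where GATAA occurred in 23% of all promoters, AGGAAG in 29.2%, AACNNGTT in 3.65% and GTAAACA in 3.06%. No matches overlapped each other, and a match describes letters in the window and is not a binding site.

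By share of UMIs all 8 factors were concentrated in epithelium-like cells. These cells held 51.1% of all UMIs in the table's cells but 98.2% of the 3962 UMIs of Elf3, 97.6% of the 917 of Grhl3, 96.5% of the 3597 of Ehf, 90.3% of the 617 of Pparg, 89.1% of the 2099 of Casz1, 87.2% of the 5065 of Gata3, 84.4% of the 1319 of Tfap2c and 82.4% of the 68 of Foxa2. These shares pool sets of unequal depth. From set 1 came 3028 of the 3890 epithelium-like UMIs of Elf3, 753 of the 895 of Grhl3, 436 of the 557 of Pparg and 39 of the 56 of Foxa2. By level, Gata3 was higher in a small unnamed cluster of sets 2 and 3, described at the end. Against fibroblast-like cells, the largest stromal class, each ratio was called when it was at least 2-fold (1 on the log2 scale), its interval excluded 0 and both classes together held at least 10 UMIs. By this rule 8 of 8 factors were higher in the epithelium-like cells of set 1, where 40.8% of 7952 genes were called in either direction. The count was 7 of 8 in set 2, with 32.7% of genes called, and 7 of 7 in set 3, with 40.9% called. The factors were listed as epithelial, with earlier results of these data known, so these counts are a description. After thinning to 900 UMIs 5 factors were called in set 1, and with at least 1000 genes per cell, which left 12 fibroblast-like cells, 2 were called in set 3. The median log2 ratio of the factors was 5.61, 3.64 and 4.58 in sets 1, 2 and 3, beside medians over all genes tested of -0.19, -0.09 and 0.11.

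Elf3 was among the factors most separated from the stroma. Its level was 415 CPM in epithelium-like and 2.58 CPM in fibroblast-like cells of set 1 (log2 ratio 7.33, interval 6.70 to 8.04), 25.7 and 0.346 CPM in set 2 (6.22, 3.72 to 11.53), and 38.1 and 0.512 CPM in set 3 (6.22, 4.36 to 9.27). The fibroblast-like values of sets 2 and 3 rested on 1 and 2 UMIs. Tfap2c had 39.4 CPM in epithelium-like and 13.3 CPM in fibroblast-like cells of set 3 (1.56, 1.16 to 2.0), and had 3.12 and 1.99 in sets 1 and 2. Gata3 differed by 4.0, 3.05 and 4.58. Pparg was 51.5-fold higher in the epithelium-like cells of set 1 and 2.48-fold and 2.72-fold higher in sets 2 and 3. Foxa2 was not called in set 2, where 14 UMIs stood against 0 and the ratio was at least 1.62-fold with the 0 taken as 3 counts. In set 3 it had 3 UMIs in all epithelium-like cells and none in fibroblast-like cells, and no ratio was formed.

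**Figure D1:**
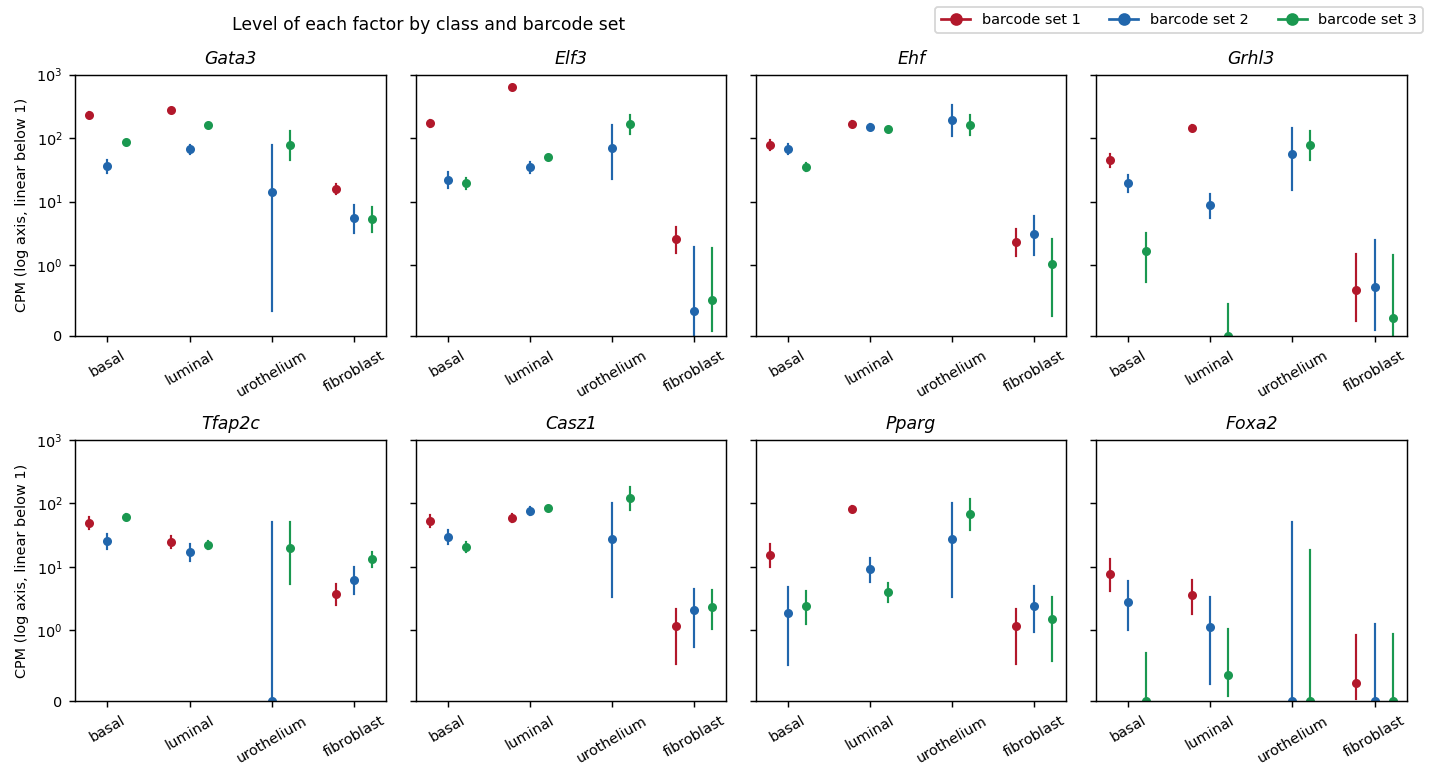
Level of each factor in CPM (log axis, linear below 1) in basal-like, luminal-like, urothelium-like and fibroblast-like cells; points are the 3 barcode sets and bars are exact 95% intervals for counting error, with the single urothelium-like cell of set 1 not drawn. Most factors lay low in fibroblast-like cells. There Tfap2c of set 3 was at 13.31 CPM, and Pparg of set 2 at 2.419 CPM, against 1.867 CPM in basal-like cells. For Elf3, Grhl3 and Pparg the set 1 points of basal-like and luminal-like cells sat above those of sets 2 and 3.

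Within the epithelium-like cells, the question was how the factors divided between basal-like and luminal-like cells of the same library. In set 1, 4 factors were at least 2-fold higher in luminal-like cells and 1 was lower, of 8, where 16.4% of 6327 genes were called, and 1 factor was called after thinning to 900 UMIs. The numbers were 3 higher and 1 lower of 7 in set 2, with 15.9% of genes called, and 3 higher and 1 lower of 6 in set 3, with 24.7% called. After thinning 4 were higher and 0 lower in each of these sets, so the factors called were not the same. The median ratio of the factors was 0.70, 0.88 and 1.14, beside -0.09, -0.08 and 0.12 over all genes tested. Ehf was the only factor called higher in luminal-like cells in all 3 sets, though in set 1 not after thinning (6 luminal-like cells and 1 basal-like cell with a UMI, ratio 2.29), and Tfap2c pointed towards basal-like cells in each.

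The ETS factor Ehf had 78.5, 67.7 and 34.97 CPM in the basal-like cells of sets 1, 2 and 3, and 169, 152 and 138 CPM in the luminal-like cells. All 3 luminal-like values lay above all 3 basal-like values. On the log2 scale the ratio was 1.1 (0.83 to 1.39), 1.17 (0.89 to 1.45) and 1.98 (1.76 to 2.21), and the ratio of set 3 lay above those of the other sets with intervals that did not overlap. As a share of cells, 65.1% of luminal-like and 9.93% of basal-like cells of set 3 had a UMI of Ehf at median depths of 7772 and 2569 UMIs, beside 0.15% of fibroblast-like cells at 1335.5. With each cell thinned to 900 UMIs the shares were 12.4%, 2.98% and 0.131%.

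Elf3, the second ETS factor, had 171, 21.9 and 19.4 CPM in basal-like and 632, 34.6 and 49.99 CPM in luminal-like cells of sets 1, 2 and 3. Within every set the luminal-like value was the higher, but the basal-like cells of set 1 exceeded the luminal-like cells of the other sets. The ratio was called in set 1 (1.89, 1.71 to 2.07) and set 3 (1.36, 1.05 to 1.69) and was 0.66 (0.13 to 1.2) in set 2.

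Gata3 was also higher in luminal-like cells of every set, by less than Elf3 in sets 1 and 3 and by more in set 2. Gata3 had 229.6, 35.9 and 85.5 CPM in basal-like and 280.3, 66.1 and 162 CPM in luminal-like cells. At full depth the ratios of 0.29, 0.88 (0.48 to 1.28) and 0.92 (0.77 to 1.08) were under 2-fold in every set. After thinning to 900 UMIs Gata3 and Elf3 were among the 4 factors called higher in set 2. Casz1, the zinc finger factor, differed little in set 1, with 52.3 CPM in basal-like and 59.3 CPM in luminal-like cells (0.18, -0.19 to 0.56). It was higher in luminal-like cells in set 2, at 75.95 against 29.9 CPM (1.35, 0.93 to 1.78), and in set 3, at 85.3 against 20.7 CPM (2.04, 1.75 to 2.34). The luminal-like level of Casz1 spanned 59.3 to 85.3 CPM over the sets, while its basal-like level ran from 20.7 to 52.3 CPM.

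Tfap2c went the other way. Its level in basal-like cells was 49.96, 25.7 and 60.7 CPM, and in luminal-like cells it was 24.6, 17.1 and 22.1 CPM. The basal-like values of all 3 sets exceeded the luminal-like values of all 3 sets. The ratio was called lower in luminal-like cells in set 1 (-1.02, -1.48 to -0.57) and set 3 (-1.45, -1.72 to -1.19) and was -0.59 (-1.19 to 0.01) in set 2. After thinning to 900 UMIs neither call remained, and the set 3 ratio of Tfap2c was -0.93.

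Pparg and Grhl3 differed between the sets. Pparg had 15.5, 1.87 and 2.405 CPM in basal-like and 81.8, 9.11 and 4.01 CPM in luminal-like cells, with called ratios of 2.40 (1.82 to 3.04) and 2.29 (0.75 to 4.27) in sets 1 and 2, and 0.74 (-0.23 to 1.79) in the set 3 cells. The set 2 ratio rested on 24 and 4 UMIs and was not called after thinning to 900 UMIs. Thinning left 1 cell with a UMI of Pparg in each of basal-like clusters 0 and 2 and luminal-like cluster 1, described below. At resolution 1.0 a cluster with 32 set 1 cells, led by Uchl1, Upk1a and Pparg, carried 6 luminal markers but was not named. Of its leading genes 3 were urothelium markers. The set 1 ratio of Pparg was then -0.35, from 30 basal-like and 20 luminal-like cells. After thinning to 900 UMIs it was at least 0.12, with no UMI of Pparg in basal-like cells. Unnamed cluster 3, with 3 basal markers and 69.5 CPM of Pparg in set 1, was in neither class. Grhl3 was higher in luminal-like cells in set 1, at 146 against 44.6 CPM (1.71, 1.36 to 2.08), and lower in set 2, at 8.73 against 19.6 CPM (-1.17, -1.97 to -0.40). The set 2 ratio of Grhl3 was not called without integration (-0.85), with cells classed one by one from marker sums (-0.42) or after thinning to 900 UMIs. The set 1 ratio of Grhl3 was not called after thinning either, with no UMI left in basal-like cells. In set 3 no UMI of Grhl3 occurred in 759 luminal-like cells, which allows at most 0.365 CPM by a limit of 3 counts, and 9 UMIs occurred in 1500 basal-like cells (1.665 CPM). Foxa2 was near the detection limit, with 12 UMIs in luminal-like and 13 in basal-like cells of set 1 (-1.12, -2.38 to 0.13), 3 and 6 UMIs in set 2 (-1.30, -3.93 to 0.93), and 3 and 0 UMIs in set 3.

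Transcripts of stromal cells moved with these classes. The 7 fibroblast markers with a row summed to 109, 1679 and 1688 CPM in basal-like cells of sets 1, 2 and 3 and to 16.9, 489 and 205 CPM in luminal-like cells, with 2 markers at 0 in each class of set 1 and at most 1 at 0 in each class of the other sets. Fibroblast-like cells had 14270 to 16440 CPM of this list. The 6 smooth muscle markers summed to 48.2, 568 and 398 CPM in basal-like and 16.6, 373 and 90.3 CPM in luminal-like cells. The 10 leukocyte markers summed to 1.78, 295 and 304 CPM in luminal-like cells, of which Cd52 led cluster 7 described below, and to 0.595, 3.73 and 20.7 CPM in basal-like cells. The part of these transcripts in the ratios was not tested.

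**Figure D2:**
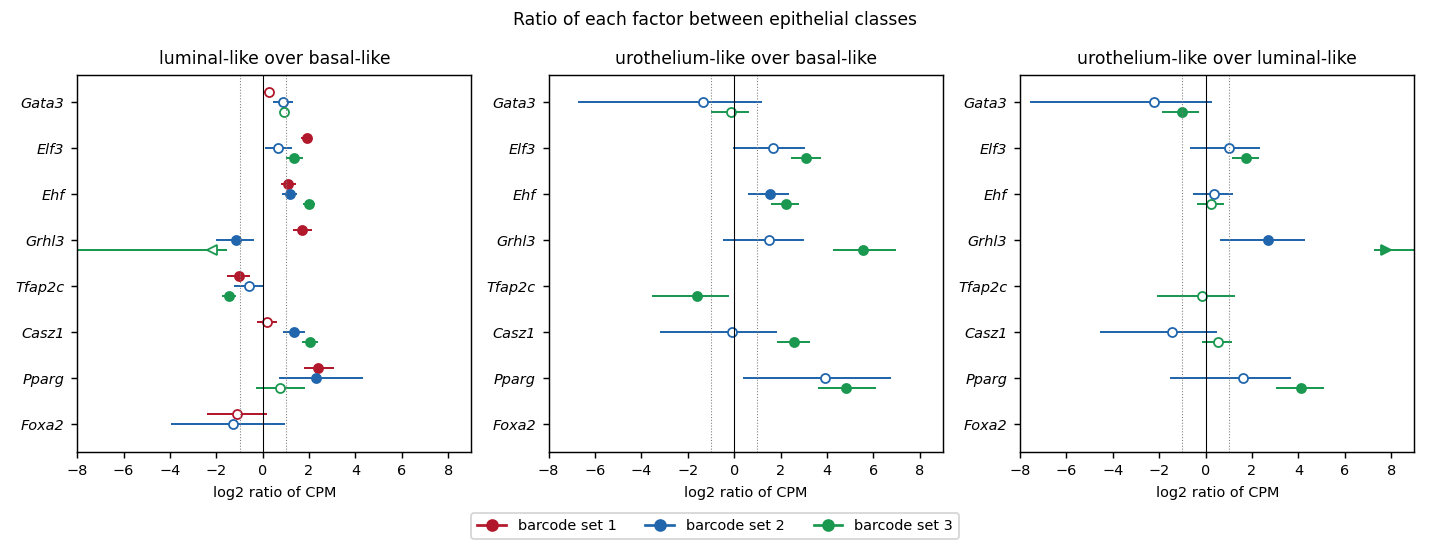
Log2 ratio of CPM of each factor between pairs of epithelial classes within barcode sets; points are ratios (filled where called), triangles are bounds with a 0 taken as 3 counts, and horizontal bars are exact 95% intervals for counting error. In the panel of luminal-like over basal-like cells Ehf lay to the right of 1 in all 3 sets, Tfap2c lay left of 0 in all 3, and Grhl3 lay at 1.71 in set 1 and -1.17 in set 2.

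The urothelium-like cells were few, and their largest group was the 28 cells of set 3, where the uroplakin Upk1a, the barrier protein Ivl and the small proline-rich Sprr2a3 were among the markers that named them. In that set 5 of 7 factors were at least 2-fold higher and 1 lower than in basal-like cells, where 14.8% of 4964 genes were called, and 2 factors were called after thinning to 900 UMIs. Their median ratio was 2.57, beside 0.09 over all genes tested. Grhl3 had 78.8 CPM in urothelium-like and 1.665 CPM in basal-like cells (5.57, 4.30 to 6.93), and Pparg had 69.0 and 2.405 CPM (4.84, 3.64 to 6.05). Elf3 was at 168 CPM (3.11, 2.51 to 3.68), Casz1 at 123 CPM (2.57, 1.88 to 3.21) and Ehf at 163 CPM (2.22, 1.64 to 2.76). Tfap2c was lower, at 19.7 against 60.7 CPM (-1.62, -3.51 to -0.25), from 4 UMIs, a call that was absent at resolution 1.0 (-1.0), with cells classed one by one (-0.89) and after thinning. Gata3 had 78.8 CPM and did not differ beyond counting error (-0.12, -0.94 to 0.60), and Foxa2 had no UMI in either class.

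Against luminal-like cells of set 3, 3 of 7 factors were higher and 1 was lower in urothelium-like cells, with 14% of 5161 genes called and medians of 0.53 for the factors and 0.07 for all genes. Grhl3, with 16 UMIs in 28 urothelium-like cells and 0 in 759 luminal-like cells, was at least 216-fold higher with the 0 taken as 3 counts, and the interval of that ratio began at 7.29 on the log2 scale. Pparg was higher by 4.10 (3.09 to 5.04) and Elf3 by 1.74 (1.19 to 2.25), and Gata3 was lower (-1.04, -1.85 to -0.33). The ratio was 0.24 (-0.31 to 0.74) for Ehf and 0.53 (-0.11 to 1.1) for Casz1. With cells classed one by one the ratio of Elf3 was -0.41 and that of Pparg 0.59, and 1 factor was called. Thinning to 900 UMIs also left 1.

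The 12 urothelium-like cells of set 2 gave fewer calls. Of 5 factors 1 was called higher than in basal-like cells, where 6.22% of 3939 genes were called: Ehf, at 195 against 67.7 CPM (1.53, 0.62 to 2.32). Without the deepest 1% of cells 0 were called. Of 6 factors 1 was called against luminal-like cells, where 9.95% of 3980 genes were called: Grhl3, at 55.8 against 8.73 CPM, from 4 UMIs (2.68, 0.68 to 4.23). After thinning 0 were called, and with cells classed one by one 0 were higher and 1 was lower. The medians of the factors were 1.51 and 0.69, beside 0.20 and 0.34 over all genes. Elf3 had 5 UMIs and Pparg 2 UMIs in these cells, at 69.8 and 27.9 CPM. The ratio of Pparg over basal-like cells rested on 2 against 4 UMIs (3.90, 0.44 to 6.70) and fell under the minimum of 10. The single urothelium-like cell of set 1 had 27 UMIs of Gata3, 14 of Pparg, 9 of Grhl3, 6 of Ehf, 4 of Elf3, 1 of Tfap2c and none of Casz1 or Foxa2 among its 108842 UMIs. In sets 2 and 3 the fibroblast markers summed to 1773 and 349.8 CPM in the urothelium-like cells, with 1 and 3 of 7 at 0. Smooth muscle markers summed to 725.8 and 611 CPM with none at 0, and the basal list to 3489 and 2951 CPM with 1 at 0 in each. The part of these in the ratios was not tested.

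Taking the epithelium-like cells of each set as a whole, 4 factors were at least 2-fold higher in set 1 than in both other sets: Elf3, Grhl3, Pparg and Foxa2. Against set 2, 5 of 8 factors were called higher and none lower, with 35.7% of 7492 genes called, and against set 3, 4 of 8 were called higher and none lower, with 33.5% of 7765 called. The median ratios of the factors were 2.07 and 2.21, beside 0.26 and 0.37 over all genes tested. Between sets 2 and 3, whose depths were close, 2 of 8 factors were higher and 1 lower in set 2, with 15.1% of 7586 genes called, and the median was -0.11, beside 0.12 over all genes. These comparisons share sets, and the values of each pair are given side by side.

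Elf3 had 415, 25.7 and 38.1 CPM in the epithelium-like cells of sets 1, 2 and 3, and set 1 exceeded set 2 by 4.02 (3.81 to 4.22) and set 3 by 3.45 (3.32 to 3.57). Pparg had 59.8, 5.998 and 4.18 CPM, with ratios of 3.32 (2.89 to 3.77) and 3.84 (3.47 to 4.22), and sets 2 and 3 did not differ beyond counting error (0.52, -0.03 to 1.06). Grhl3 fell at each step, with 103, 13.0 and 2.0 CPM, and every pair of sets was past 2-fold, including set 2 over set 3 (2.70, 2.13 to 3.30). Foxa2 had 5.35, 1.68 and 0.176 CPM from 39, 14 and 3 UMIs, and set 2 over set 3 was 3.25 (1.41 to 5.69).

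The same order appeared in the share of epithelium-like cells with a UMI. For Elf3 it was 90.7%, 11.4% and 16.2% in sets 1, 2 and 3 at their full depths, and 27.3%, 1.81% and 2.85% with each cell thinned to 900 UMIs, beside 0.253%, 0 and 0.0437% of thinned fibroblast-like cells. For Grhl3 the shares were 73.5%, 6.86% and 0.864% at full depth and 6%, 0.906% and 0.182% after thinning, beside 0, 0.0631% and 0.0437% of thinned fibroblast-like cells. Pparg was detected in 47.0%, 2.91% and 2.27% of epithelium-like cells at full depth and in 6.67%, 0.418% and 0.401% after thinning, beside 0.253%, 0.252% and 0.219% of fibroblast-like cells. At equal depth the set 1 share thus stayed above those of sets 2 and 3 for each of the 3 factors, and the Pparg shares of sets 2 and 3 lay close to those of their fibroblast-like cells.

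Gata3 had another order, with 253.5 CPM in set 1, 46.0 CPM in set 2 and 128 CPM in set 3. Its set 1 value exceeded set 2 by 2.46 (2.30 to 2.63) and set 3 by 0.98 (0.89 to 1.07), and set 2 lay under set 3 by a ratio of -1.48 (-1.64 to -1.33). The other 3 factors differed less. Ehf had 132, 103 and 97.1 CPM, Casz1 had 53.7, 50.5 and 62.2 CPM, and Tfap2c had 32.6, 24.7 and 39.4 CPM, and none of their 9 ratios between sets reached 2-fold. Summed urothelium markers moved with the set in the same cells, at 6093, 723 and 1127 CPM for the 10 with a row, of which 0, 2 and 1 were at 0. Fibroblast markers summed to 160.3, 1498 and 859.7 CPM with none at 0. The part of these and of the depth of set 1 in the differences was not tested.

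**Figure D3:**
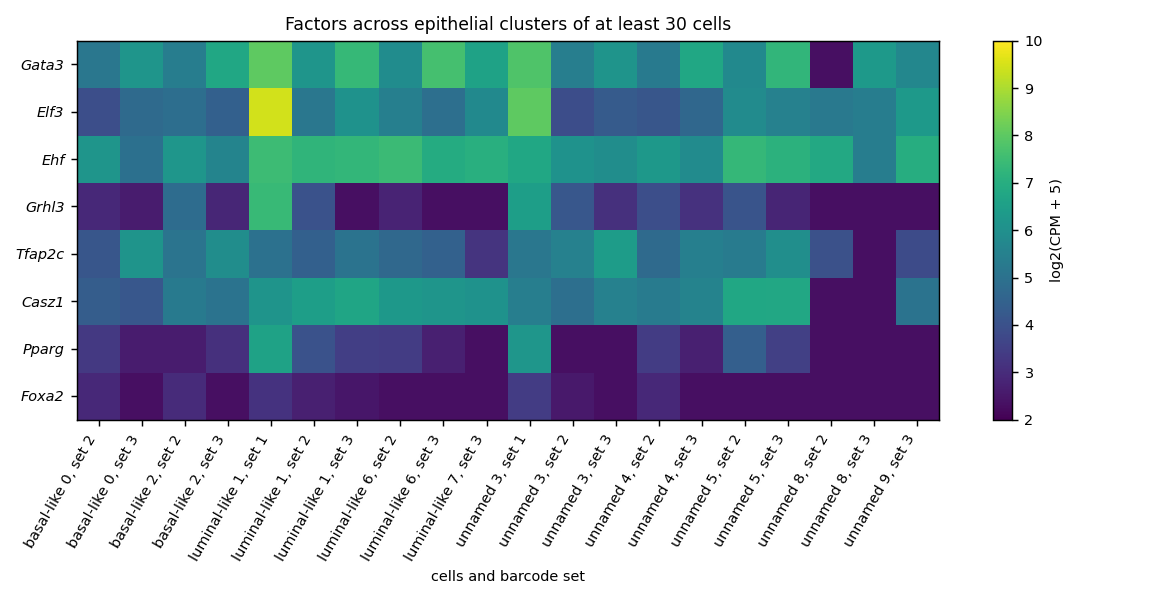
Level of each factor, as log2(CPM + 5), in each epithelial cluster of at least 30 cells of a barcode set; colour runs from dark (low) to yellow (high), and columns are named by class, cluster number and set. The 2 columns of set 1, luminal-like 1 and unnamed 3, are the brightest for Elf3, Grhl3 and Pparg, while Ehf varies less across the columns.

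The classes were not uniform inside. Luminal-like cells came from clusters 1, 6 and 7, led by Clca1 and Cxcl17, by Wfdc3 and Tcaf2, and by Cd52 and Wfdc15b. In set 3 the level of Gata3 was 159, 193 and 93.6 CPM in these clusters, that of Tfap2c 28.3, 17.3 and 4.25 CPM, and that of Elf3 63.2, 25.1 and 51.1 CPM. Cluster 7 thus had the least Gata3 and Tfap2c among them in set 3. In set 1, 47 of the 54 luminal-like cells lay in cluster 1, with 698 CPM of Elf3, 162 CPM of Grhl3 and 91.8 CPM of Pparg, and the 7 cells of cluster 7 had 498.7 CPM of Gata3, 92.2 CPM of Elf3, 19.0 CPM of Grhl3 and no UMI of Pparg. The luminal-like Pparg of set 1 was therefore all in cluster 1.

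Basal-like cells came from clusters 0 and 2, of which cluster 2 had higher Gata3 in set 3, at 103 against 67.7 CPM, and higher Grhl3 in set 2, at 23.4 against 2.57 CPM, where cluster 0 had 1 UMI. Cluster 5, which held mitotic markers such as Cenpf and Ube2c and was not named, had 105 CPM of Casz1 in both set 2 and set 3 and 155 and 137 CPM of Ehf, values within the range of the luminal-like clusters for Ehf. Unnamed cluster 3, led by EGFP, the myogenic factor Msc and the growth factor Igf2, held 37, 359 and 58 cells of sets 1, 2 and 3. It carried 3 basal markers, but striated muscle genes led it and it was not named. In it Elf3 stood at 256, 9.69 and 14.7 CPM, Pparg at 69.5 CPM in set 1 and at no UMI in sets 2 and 3, and Tfap2c at 30.8, 40.5 and 81.0 CPM. The difference between set 1 and the others in Elf3 and Pparg was present in this unnamed cluster as well as in the luminal-like cells.

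In single cells the factors were seldom detected together outside set 1. An epithelium-like cell had UMIs of a median of 6 of the 8 factors in set 1, at a median depth of 41164 UMIs, and of 1 in sets 2 and 3, at 4099 and 3545. The means were 5.31, 1.09 and 1.25, and at least 4 factors were detected in 86.1% of these cells in set 1, 5.12% in set 2 and 8.93% in set 3. With every cell thinned to 900 UMIs the mean number of factors per cell was 0.693, 0.208 and 0.267. In fibroblast-like cells the means were 0.298, 0.0325 and 0.0349 on all UMIs, at median depths of 15977, 1287 and 1335.5, and 0.0303, 0.0215 and 0.0262 after thinning. Thinning narrowed the gap between set 1 and the other sets, and part of it remained in epithelium-like cells. Within set 3, luminal-like cells had a mean of 0.415 factors after thinning and basal-like cells 0.186.

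**Figure D4:**
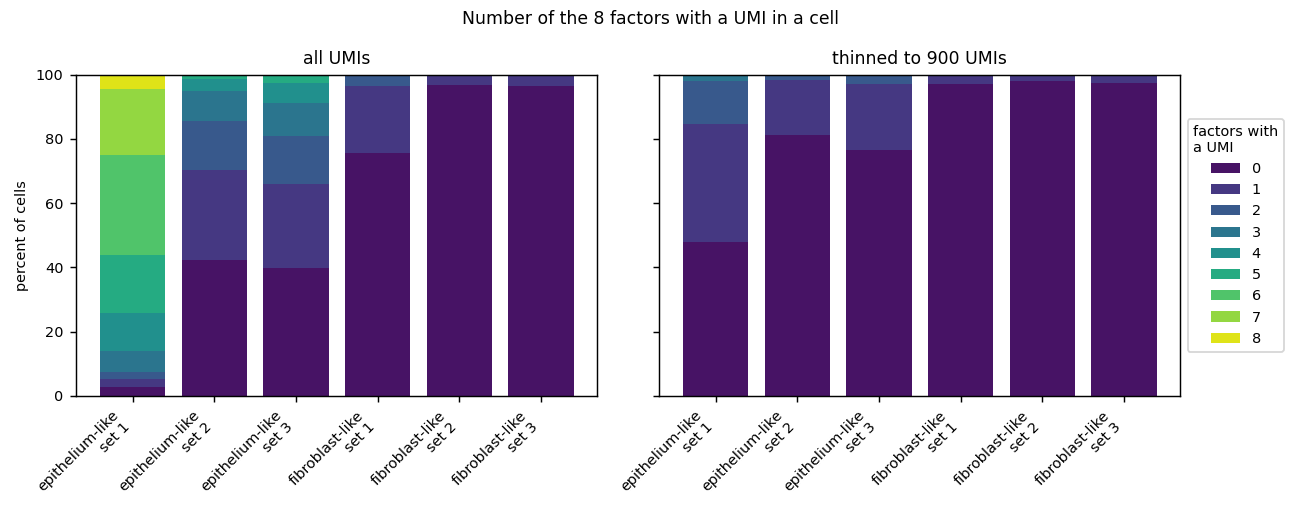
Percent of cells (y axis) by the number of the 8 factors with at least 1 UMI, in epithelium-like and fibroblast-like cells of each barcode set, with all UMIs on the left and after thinning each cell to 900 UMIs on the right. The set 1 epithelium-like bar is mostly 4 or more factors on all UMIs (86.1%), and after thinning 48% of its cells have none.

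Other epithelial transcription factors from a list of 94, of which 40 had a row, did not share the direction of the 8 genes as a group. Against fibroblast-like cells 9, 9 and 8 of 38, 35 and 37 tested were higher in epithelium-like cells of sets 1, 2 and 3, and 14, 11 and 17 were lower, where 40.8%, 32.7% and 40.9% of all genes were called, with medians of -0.55, -0.35 and -0.65. Those past 2-fold in the same direction in all 3 sets numbered 12, and the share of all genes that did so was not computed. The grainyhead relative Tfcp2l1 was higher by at least 5.16 on the log2 scale in each set, Sox2 by 2.47 and Ovol2, a repressor of mesenchymal genes, by 2.38, while Nfia and Id3 were lower, the ratio nearest to 0 being 1.71 and 1.58 in size. Between luminal-like and basal-like cells, 9 of the 35 tested in each were past 2-fold in the same direction in sets 2 and 3, where 15.9% and 24.7% of all genes were called in either direction. Those shares are for single sets, and the share of all genes called the same way in both was not computed. The ETS factor Elf5 (by at least 2.20) and Tfcp2l1 (1.74) were higher in luminal-like cells, and Bnc1, a basal keratinocyte factor, Id1, Id3 and Prdm1 were lower, by at least 3.24, 1.62, 1.46 and 1.41 in size. In set 1 Prdm1 was instead higher in luminal-like cells, with a ratio of 1.59.

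Repressors of epithelial genes had the opposite pattern to the 8 factors. Of 7 listed, Zeb2, Snai1, Twist2 and Prrx1 had a row, and all 4 were lower in the epithelium-like cells than in fibroblasts of each set, where 40.8%, 32.7% and 40.9% of all genes were called in either direction, with medians of -5.15, -3.88 and -4.80. Known targets of grainyhead factors, of which 8 of 10 had a row, were higher in epithelium-like cells in 8, 7 and 7 of 8 cases beside the same shares of all genes, though Cdh1, Cldn4, Rab25, Esrp1, Prom2 and Spint1 were also on the marker list that named these cells, so their count is a description. Between luminal-like and basal-like cells 1, 2 and 4 of them were higher in sets 1, 2 and 3 and 1, 0 and 0 lower, where 16.4%, 15.9% and 24.7% of all genes were called. Prom2, a protein of membrane protrusions, was higher in luminal-like cells in every set (1.02, 1.32 and 1.56).

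Shh, the secreted signal whose epithelial expression FOXA2 is known to regulate, was lower in luminal-like than in basal-like cells in all 3 sets (-2.76, -2.87 and -3.32). Against fibroblast-like cells it was higher in the epithelium by 4.69, 4.91 and 4.10. Among 6 of 9 known PPARG targets with a row, Fabp4, a fatty acid carrier, was higher in luminal-like than in basal-like cells by 7.85 in set 1 and 1.36 in set 2, and its ratio in set 3 was -0.10. Its ratio was thus largest in set 1. Fabp4 and the lipid droplet protein Plin2 were higher in urothelium-like than in basal-like cells of set 3 by 2.10 and 4.74, but both led the cluster that made up those cells, so this is part of its definition. Of the 5, 3 and 6 tested in sets 1, 2 and 3, 2, 1 and 1 were higher and 1, 1 and 3 lower in luminal-like cells, with medians of 0.87, 0.07 and -1.98, where 16.4%, 15.9% and 24.7% of all genes were called. Fabp5 had -0.94 in set 3.

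Likeness of pattern was described by the correlation of log2(CPM + 5) over 20 units, each an epithelial cluster within a set with at least 30 cells, across 5789 genes with at least 100 UMIs. The units share libraries, and 2 of them came from set 1. Gata3 was most like Cpne3 (r = 0.920), Cnpy2 and Baiap2l1, and Elf3 was most like Akip1 (0.912), Anxa9 and Spint2. Ehf was nearest to Pnpla2 (0.861), Prss8 and Tspan33, and Casz1 to Vsig10 (0.923), Eif4ebp2 and Nbea. Tfap2c was nearest to Cpa6 (0.875), Xrcc5 and Tgs1. Pparg was nearest to Dhcr7 (0.941), Efna3 and Tjp3, Grhl3 to Calcb (0.913), Krtdap and H19, and Foxa2 to H19 (0.877), Sema3d and Calcb. Without the units of set 1, Pparg and Grhl3 each kept 0 of these nearest genes.

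Among the factors themselves, Grhl3 and Foxa2 had r = 0.83, Grhl3 and Pparg 0.82 and Elf3 and Pparg 0.78 over the 20 units. In the 18 units of sets 2 and 3 these were 0.64, 0.34 and 0.15, so the likeness of Pparg to Grhl3 and Elf3 rested largely on the 2 units of set 1. The r of some pairs changed sign without set 1, as Elf3 and Grhl3 (0.62 and -0.39) and Elf3 and Foxa2 (0.45 and -0.45). Among the pairs of highest r that had nearly the same value with and without set 1 were Casz1 and Gata3 (0.60 and 0.62), Casz1 and Ehf (0.61 and 0.60) and Elf3 and Ehf (0.55 and 0.61). Tfap2c and Elf3 had -0.13 and -0.37.

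**Figure D5:**
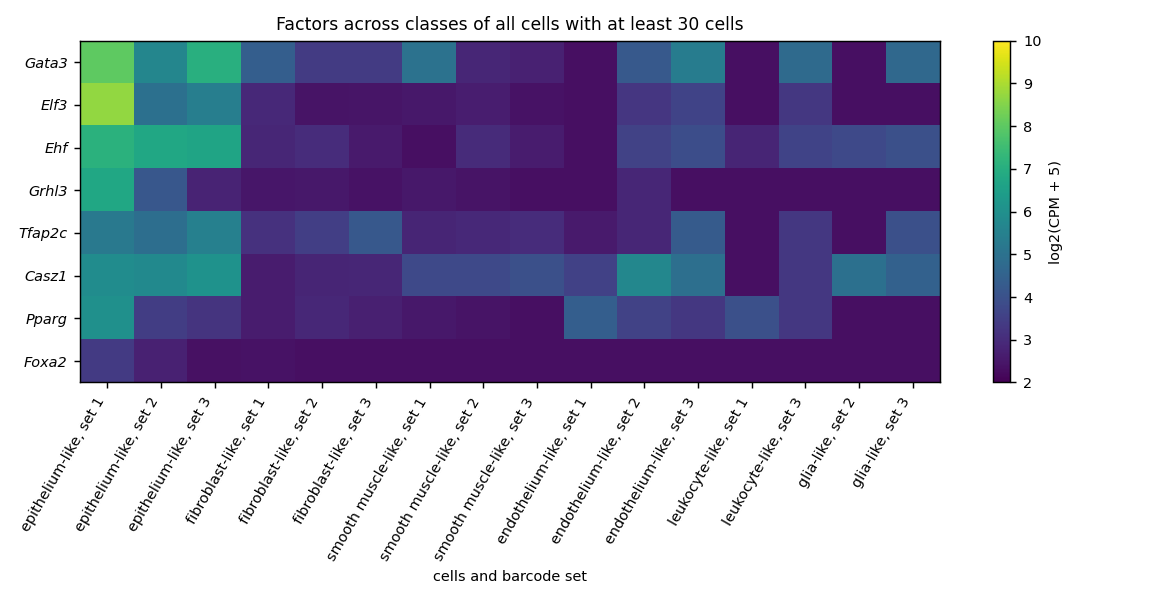
Level of each factor, as log2(CPM + 5), in classes of all cells with at least 30 cells in a barcode set; colour runs from dark (low) to yellow (high). The epithelium-like columns are the brightest for Elf3, Ehf and Gata3, and Casz1 also rises above the lowest colour in endothelium-like and glia-like cells of sets 2 and 3.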

How the data were processed

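The deposited table held natural log values, ln(1 + 10000 × UMIs of the gene / total UMIs of the cell), which the authors made with Seurat from counts of Cell Ranger 3.1.0 on mm10; the labels and the methods named different kit versions. All 11120293 values above 0 returned whole UMIs within 0.05, and 1 of 9784 rows was cut short (9781 were used), so the table is held in part: its rows covered 49.4% to 52.7% of the UMIs of each set. No sample columns were left unused (0).

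Cells with at least 200 genes were clustered with Seurat 5.3.0 (R 4.3.3): integration over 20 dimensions, 2000 features, cell cycle regressed out, 30 principal components and resolution 0.5, first on all cells and then on epithelium-like cells. A marker counted when at least 10% of a cluster's cells held it at 2 times its level in the median cluster. A cluster was named when at least 3 markers of a list counted, ahead of the next list by 2 markers. No name was given where another list had more of the 10 leading genes, or where 3 or more striated muscle genes led. These exclusions left epithelial clusters 3 and 9, with 3 and 4 basal markers, unnamed. This scoring was set after the clusters were seen. Scrublet (scanpy 1.11.5) marked 3, 0 and 0 cells of sets 1, 2 and 3 and was not used to remove cells. Levels carry exact Poisson intervals and ratios exact binomial intervals (scipy 1.17.1); simulated data were used to check the intervals. No p-value was computed. All 8 genes were named; of other factors, at most 6 per comparison past 2-fold in the same direction in every set with at least 50 cells of both classes, and the 3 genes of highest r. The genes, lists and rules were chosen with earlier results of these data known. Alternatives were thinning, cell filters, other clustering, single-cell calls, pseudocounts and doublet removal; those for differences between sets, and the correlation without set 1, were chosen after seeing the data. Authors' cell labels were not used here, and some genes that these rules name are not reported here.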

Additional observations from a re-analysis of the deposited data

Results flagged for a closer look

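The level of Gata3 was high in cells that no comparison used. In an unnamed cluster with neuron and neuroendocrine markers, led by Pcsk1n, Stmn3 and Stmn2 and holding 25, 12 and 17 cells of sets 1, 2 and 3, Gata3 had 219.4, 145.1 and 186.6 CPM, above the 15.9, 5.53 and 5.38 CPM of fibroblast-like cells in the same sets. Its intervals were 191.9 to 249.7, 79.3 to 243.4 and 135.0 to 251.3 CPM, from 229, 14 and 43 UMIs. The levels of sets 2 and 3 were also above those of epithelium-like cells, at 45.95 and 128.4 CPM, where set 1 had 253.5 CPM. Elf3, Pparg, Tfap2c and Foxa2 each had at most 1 UMI per set in these cells, and no marker of the epithelium list was raised in the cluster.

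The ratio of Grhl3 in luminal-like over basal-like cells was 1.71 in set 1 and -1.17 in set 2, with intervals on opposite sides of 0. The set 2 ratio was not called without integration (-0.85), with cells classed one by one (-0.42) or after thinning to 900 UMIs. The set 1 ratio was not called after thinning either. The set 1 luminal-like cells had 7770 CPM of the urothelium list and 1323 CPM of the luminal list. With 1 library per set the difference between the sets was not tested.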

How the results depend on the processing

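Of 100 recomputed numbers of factors, 89 stayed within 1.5 times the value given, but 13 of these counted only the called factors that kept their sign in the mean deposited log values. Of 610 recomputed ratios 523 stayed, 85 moved and 2 called ratios changed sign, where 96 were compared by sign on the deposited log values and the others against their counting interval. Thinning each cell to 900 UMIs left 1 factor called in luminal-like against basal-like cells of set 1 (5 otherwise), 2 in urothelium-like against basal-like cells of set 3 (6), 0 and 1 in urothelium-like against luminal-like cells of sets 2 and 3 (1 and 4), and 5 in epithelium-like against fibroblast-like cells of set 1 (8). Classing cells one by one from marker sums left 2 factors in luminal-like against basal-like cells of set 2 (4) and 1 in urothelium-like against luminal-like cells of set 3 (4), turned Elf3 in the latter to -0.41 (1.74), and gave 0 higher and 1 lower in urothelium-like against luminal-like cells of set 2 (1 higher). The set 2 call of lower Grhl3 in luminal-like cells was absent under thinning, one-by-one classing (-0.42) and without integration (-0.85). Under thinning the set 1 call of higher Grhl3 and the set 2 call of higher Pparg in luminal-like cells were also absent. Lower Tfap2c was no longer called under thinning in luminal-like against basal-like cells of sets 1 and 3, nor at resolution 1.0, under thinning or under one-by-one classing in urothelium-like against basal-like cells of set 3. At resolution 1.0 Pparg in luminal-like against basal-like cells of set 1 turned to -0.35 (2.40). The single call of urothelium-like against basal-like cells of set 2 became 2 without the 6% of cells with the highest Scrublet scores, 2 with no minimum of UMIs and 0 without the deepest 1% of cells. With at least 1000 genes per cell, 2 factors were called in epithelium-like against fibroblast-like cells of set 3 (7), where 12 fibroblast-like cells were left. The cause was not tested, though thinning and the stricter filter leave fewer UMIs by construction. Luminal-like against basal-like cells of set 1 was not run without integration or under one-by-one classing, nor urothelium-like cells without integration or, in set 2, with at least 1000 genes, since a class then held fewer than 10 cells. Of the 3 most similar genes, none was shared for any factor when all classes were used, and 0 to 2 when set 1 was left out. Depth limits Foxa2 (68 UMIs in all) and every urothelium-like value. No paired analysis was possible because there was only 1 library in each group.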

Other observations

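Outside the epithelium-like cells, Casz1, Gata3 and Pparg were detected in other classes. Casz1 had 46.7 and 25.5 CPM in the endothelium-like cells of sets 2 and 3, from 20 and 21 UMIs, 6.65 CPM in those of set 1, and 8.62 to 10.6 CPM in smooth muscle-like cells of the 3 sets, against 1.16 to 2.30 CPM in fibroblast-like cells. Gata3 had 36.4 CPM in endothelium-like cells of set 3 and 14.01 CPM in those of set 2, and no UMI in the 38 of set 1. In smooth muscle-like cells it had 27.4 CPM in set 1 and 2.24 and 1.67 CPM in sets 2 and 3. Pparg, known also from capillary endothelium and macrophages, had 16.2 CPM in endothelium-like and 10.4 CPM in leukocyte-like cells of set 1, from 17 and 5 UMIs. The epithelium marker list summed to 37.99, 504.5 and 818.2 CPM in the endothelium-like cells of sets 1, 2 and 3, beside 59.73, 183.5 and 59.1 CPM in fibroblast-like cells, and its part in these levels was not tested.

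Tfap2c had 13.3 CPM in fibroblast-like cells of set 3, against 3.74 and 6.22 CPM in those of sets 1 and 2. It was unevenly spread: cluster 1 of all cells, led by Fgf21, Lamc3 and Col15a1, had 14.02 and 23.1 CPM in sets 2 and 3. Foxa2 had 10 UMIs (15.6 CPM) in the 13 set 1 cells of an unnamed cluster led by the striated muscle genes Myod1, Msc and Myf5, beside 5.35 CPM in the epithelium-like cells of that set. Epithelial markers, among them Cdh1 and Cldn4, were also high in that cluster, and their part in the value was not tested.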
